A study of Caenorhabditis elegans with 2 samples.

Results

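The regions described here were the autosomal binding regions that lay at the transcript start of 1 protein-coding gene. They were taken from the authors' list of regions past an irreproducible discovery rate (IDR) threshold over 2 replicates, called IDR regions here. A region was a member when its summit lay in the promoter window of exactly 1 protein-coding gene, from 1000 bp upstream to 200 bp downstream of a transcript start, and within 200 bp of a start of that gene. By this rule 221 regions were members, which was 9.81% of all 2253 IDR regions and 12.8% of the 1723 autosomal ones (95% Wilson interval 11.3 to 14.5%). They lay at 217 genes. The assay was chromatin immunoprecipitation with sequencing (ChIP-seq) of FKH-10 in whole Caenorhabditis elegans of the fourth larval stage (L4), with males and females pooled per the labels. Both biological replicates were of strain OP337, which carries the unc-119(ed3) mutation and the transgene wgIs377, fkh-10 with the tags TY1, EGFP and FLAG, and a copy of unc-119. There was 1 group and no second genotype, treatment or stage, so all comparisons are between regions, and each replicate's value is given. Whole animals mix all tissues, so more cells bound and more binding per cell cannot be told apart.

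Regions were sought at fkh-10, the gene that the transgene carries. No region lay within 20 kb of fkh-10 in the IDR, pooled, replicate 1 or replicate 2 list, and the nearest summits were 32.1 kb from the gene in the IDR list and 20.6 to 20.7 kb in the other lists. Which caller and cutoff made the lists is not given, so this absence cannot check the labels. The libraries are spoken of by their label only. The pooled, replicate 1 and replicate 2 lists held 19381, 30000 and 28886 relaxed regions, background included, and the read depth behind them is unknown. Dense runs of regions, spaced by 2000 bp or less over at least 30 kb, held 8 of the 221 members in at least 1 list. One run on chromosome I held both hmp-2 regions, K05C4.9, K05C4.7 and sol-2 in all 3 relaxed lists, and gpr-158 in the replicate 2 list. A run in the replicate 1 list alone held cdc-48.1 and mnk-1.

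FKH-10 belongs to the forkhead family, whose winged-helix domain binds DNA around a core written GTAAACA in many members. A promoter carries the site where RNA polymerase II begins a transcript, and the stretch just upstream of that site is commonly free of nucleosomes and open to transcription factors. In C. elegans many transcripts lose their true 5' end when a spliced leader is joined on, so an annotated start can lie downstream of the place where transcription begins. Neighbouring genes are close together, and a factor bound between divergent genes cannot be given to either of them. The regions here are those whose summit lies in the promoter window of only 1 protein-coding gene. Such a summit can still lie inside the body of another protein-coding gene.

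Windows of 50 bp on either side of the summit are shown first for the 12 strongest members on chromosomes II to V whose window touches no annotated exon, because they let the letters under the strongest binding be read beside the values given further on. Each runs 5' to 3' on the strand of its gene, from the reference of ce11 (WBcel235). Capitals mark matches, on either strand, to any of the 12 short motifs that were searched.
cdc-48.1: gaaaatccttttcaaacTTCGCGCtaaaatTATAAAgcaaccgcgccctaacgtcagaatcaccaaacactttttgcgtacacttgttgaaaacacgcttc
his-37: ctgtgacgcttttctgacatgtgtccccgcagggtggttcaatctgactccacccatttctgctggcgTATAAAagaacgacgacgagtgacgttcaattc
hif-1: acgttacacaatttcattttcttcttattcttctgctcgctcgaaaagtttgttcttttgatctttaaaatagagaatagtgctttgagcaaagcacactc
tos-1: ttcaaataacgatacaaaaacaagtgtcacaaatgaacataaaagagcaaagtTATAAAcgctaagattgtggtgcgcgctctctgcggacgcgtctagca
lin-9: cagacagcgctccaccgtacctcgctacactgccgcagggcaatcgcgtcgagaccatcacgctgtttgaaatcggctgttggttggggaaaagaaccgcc
fbxl-2: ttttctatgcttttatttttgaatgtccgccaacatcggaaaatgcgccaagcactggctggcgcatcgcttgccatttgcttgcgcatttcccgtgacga
ntl-11: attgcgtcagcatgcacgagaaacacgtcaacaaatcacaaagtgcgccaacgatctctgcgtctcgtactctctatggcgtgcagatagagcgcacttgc
scc-2: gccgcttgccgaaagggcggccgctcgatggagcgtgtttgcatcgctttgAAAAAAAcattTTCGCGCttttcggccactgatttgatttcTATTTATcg
brc-1: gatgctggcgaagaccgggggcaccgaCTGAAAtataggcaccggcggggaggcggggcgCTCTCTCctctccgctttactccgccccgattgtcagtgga
pde-4: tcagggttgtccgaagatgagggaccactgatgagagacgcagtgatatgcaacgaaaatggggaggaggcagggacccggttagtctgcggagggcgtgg
gei-4: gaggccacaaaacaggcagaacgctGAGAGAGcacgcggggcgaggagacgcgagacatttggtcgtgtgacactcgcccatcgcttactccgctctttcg
egl-21: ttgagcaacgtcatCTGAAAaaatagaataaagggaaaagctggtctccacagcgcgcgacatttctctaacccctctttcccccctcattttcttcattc
The windows were chrII:10563543-10563643, minus strand (cdc-48.1), chrV:9546987-9547087, plus strand (his-37), chrV:20782273-20782373, plus strand (hif-1), chrV:9344268-9344368, minus strand (tos-1), chrIII:8904225-8904325, minus strand (lin-9), chrIII:4757116-4757216, plus strand (fbxl-2), chrIV:15471578-15471678, minus strand (ntl-11), chrII:255264-255364, minus strand (scc-2), chrIII:3863091-3863191, minus strand (brc-1), chrII:7642298-7642398, minus strand (pde-4), chrIII:354803-354903, minus strand (gei-4) and chrIV:10481892-10481992, minus strand (egl-21). None of the 12 held GTAAACA, and scc-2 alone held another forkhead form, ATAAATA, which stands on the other strand as TATTTAT. The cdc-48.1, his-37 and tos-1 windows held TATAAA on the gene strand. The windows of hif-1, lin-9, fbxl-2, ntl-11 and pde-4 held none of the motifs searched. Those of brc-1 and gei-4 held the GAGA repeat, as CTCTCTC at brc-1 and GAGAGAG at gei-4.

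A further 4 windows, chosen in the same way among members with GAGAGAG, show the repeat that was more frequent at the members than at weaker regions of the same place.
unc-80: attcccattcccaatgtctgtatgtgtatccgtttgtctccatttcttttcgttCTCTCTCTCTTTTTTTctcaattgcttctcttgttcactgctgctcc
aipl-1: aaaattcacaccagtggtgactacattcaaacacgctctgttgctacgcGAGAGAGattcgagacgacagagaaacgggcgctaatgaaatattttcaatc
tre-2: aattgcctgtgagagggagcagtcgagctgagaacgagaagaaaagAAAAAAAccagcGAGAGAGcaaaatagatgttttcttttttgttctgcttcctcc
Y43F8B.2: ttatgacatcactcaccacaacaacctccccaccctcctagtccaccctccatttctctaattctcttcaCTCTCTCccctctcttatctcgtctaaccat
These were chrV:20879355-20879455, plus strand (unc-80), chrV:15136899-15136999, minus strand (aipl-1), chrIV:6879022-6879122, minus strand (tre-2) and chrV:19522918-19523018, minus strand (Y43F8B.2). In unc-80 the repeat ran straight into a stretch of T, and in aipl-1 it lay at the centre of the window.

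Members were found on every autosome. There were 52 on chromosome I, 47 on II, 37 on III, 44 on IV and 41 on V. Their density was highest on chromosome I, at 3.45 per Mb, and lowest on V, at 1.959 per Mb. Per 1000 protein-coding genes there were 18.1 members on chromosome I and 8.21 on chromosome V, with 13.4 to 14.02 on the other 3 autosomes. On chromosome X, regions of the same place were 69 of 530 IDR regions (13.02%, interval 10.4 to 16.2%), a share that overlapped the autosomal one. A standard width of 390 bp was shared by 215 members, and the narrowest, at cdc-48.1, was 167 bp wide. The authors' −log10 value stood at its ceiling in 167 members (75.6%), so that strength is described by the signal value alone.

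Relaxed regions near a start passed the IDR threshold more often than regions outside promoters, but less often than regions shared between genes. Of 1620 autosomal relaxed regions of the pooled list with the members' place, 225 had an IDR summit within 100 bp (13.9%, interval 12.3 to 15.7%). Over all autosomal relaxed regions the share was 11.1%. Upstream promoter regions of 1 gene, with the summit more than 200 bp from a start, passed in 12.4% of 2775 cases, and the members' place exceeded them by 1.53 percentage points (Newcombe interval −0.52 to 3.65), which includes 0. Outside promoters 8.28% of 9982 passed, a difference of 5.604 points (3.91 to 7.45). In promoter windows shared by genes 29.7% of 1039 passed, so the members' place fell short by 15.9 points (interval of the difference −19.1 to −12.6). No test was made, since regions are not replicates, and these intervals cover counting error only.

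**Figure D1:**
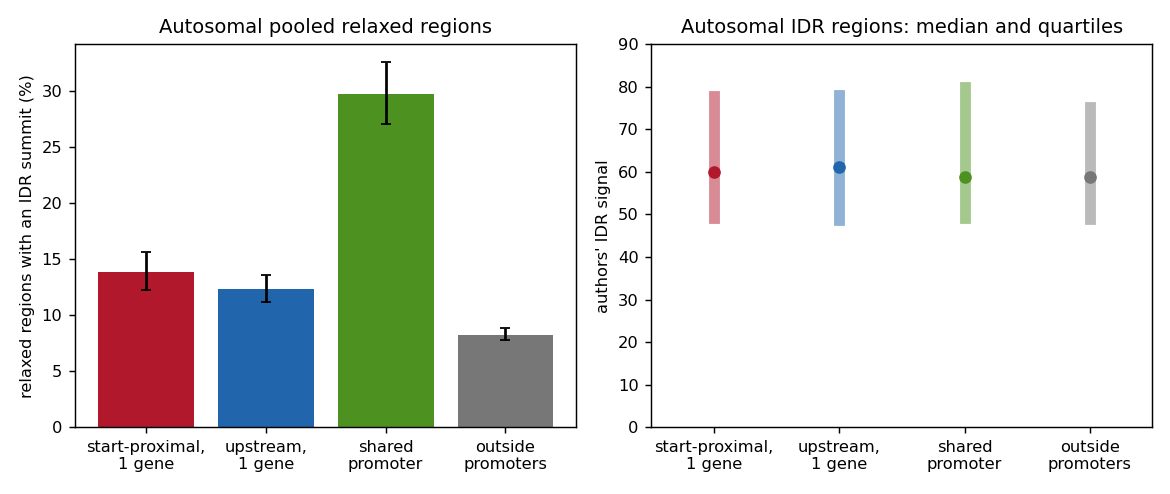
Left, share of autosomal pooled relaxed regions with an IDR summit within 100 bp, by place (bars, with 95% Wilson intervals); right, median (points) and quartiles (thick lines) of the authors' signal of the autosomal IDR regions of each place. Start-proximal regions of 1 gene passed in 13.9% of cases, between the 8.28% outside promoters and the 29.7% of shared promoters, while the median signals of the 4 places lay between 58.7 and 61.1.

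Past the threshold, the members' signals covered much the same range as those of other places. Their signal ran from 41.6 to 251, with a median of 59.8 and quartiles of 49.1 and 77.7. The medians were 61.1 in the 356 upstream one-gene regions, 58.8 in the 312 shared ones and 58.7 in the 834 outside promoters. Of the 221 members, 57 were among the 563 strongest regions of the IDR list (25.8%, interval 20.5 to 31.9%), where all autosomal regions had 25.1%. The quartiles within each place lay farther apart than the medians of the places.

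The place of the summit within the 200 bp was uneven, with members lying upstream of the start. The median member summit was 92 bp upstream of the nearest start (quartiles 148 and 20 bp upstream). Of the 221 summits 183 were upstream and 38 downstream (17.2% downstream, interval 12.8 to 22.7%). Relaxed regions of the same place with no IDR summit had a median 39 bp upstream, and 555 of 1395 lay downstream (39.8%). The downstream share of members minus that of relaxed regions was −22.6 points (−27.7 to −16.5). With as many of the strongest regions of replicate 1 in place of the IDR list, 23.2% of 224 members and 38.9% of relaxed regions lay downstream, a difference of −15.7 points, and with those of replicate 2 the difference was −22.1 points.

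Put as a rate, 188 of 1028 relaxed regions on the upstream side of a start passed the IDR threshold (18.3%), and 37 of 592 on the downstream side (6.25%), a difference of 12.04 points (8.86 to 15.03). The rate was 18.9% in the first 100 bp of the members' place, counted from its upstream limit, and 17.5% in the last 100 bp before the start. It was 8.31% in the first 100 bp after the start and 4.45% from 100 to 200 bp. Further upstream, outside the members' place, it was 20.99% from −300 bp to the members' limit and 15.02% in the next 100 bp, then 5.90 to 12.2% in the bins out to 1000 bp. The limit of 200 bp thus runs through a zone of high rates and marks no edge. The members just inside it were at smr-1, a splicing-related gene (200 bp, signal 52.7), and mog-4, which encodes a DEAH-box helicase of splicing (198 bp, signal 76.9), and the regions just outside were at F28E10.1 (1 bp past it, signal 85.02) and cri-1 (2 bp past it, signal 61.4).

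**Figure D2:**
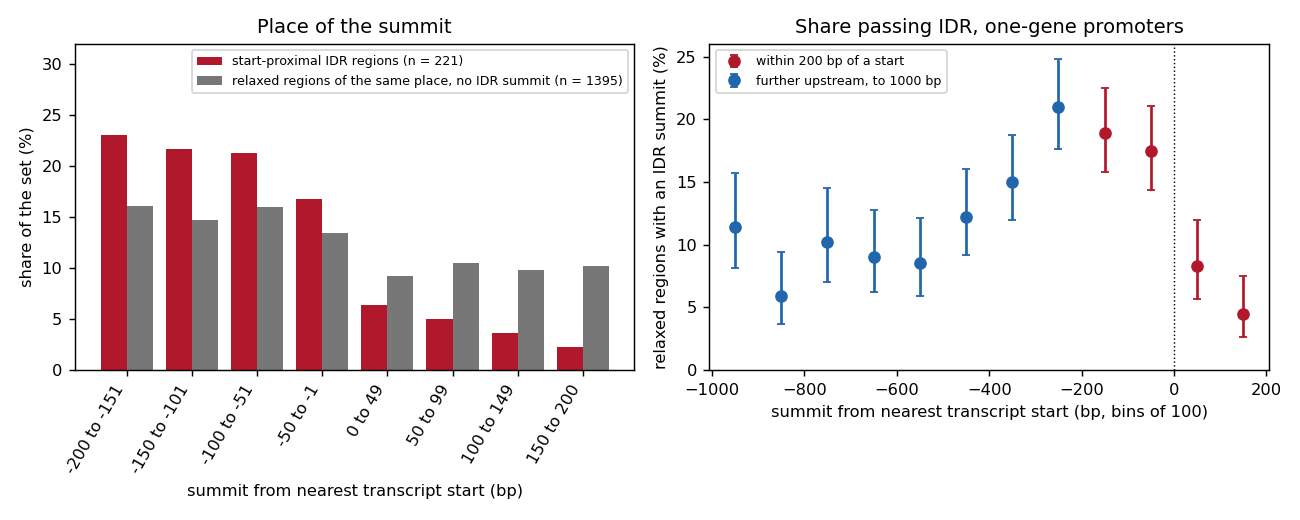
Left, share of the 221 members and of the 1395 relaxed regions of the same place without an IDR summit in bins of 50 bp, by distance of the summit from the nearest transcript start (negative is upstream); right, share of relaxed regions in one-gene promoters with an IDR summit in bins of 100 bp, with 95% Wilson intervals. The rate is 17.5 to 20.99% in the 3 bins before the start and drops to 8.31% and then 4.45% after it.

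The annotation under the summits differed in the same way. Between genes lay 59.7% of the members' summits, against 39.9% of the relaxed ones. Coding exons held 5 members' summits (2.26%, interval 0.97 to 5.19%), against 20.7% of the relaxed ones (18.7 to 22.9%). Introns held 20.4% of members and 24.7% of relaxed regions, and 5' untranslated regions 11.8% of members and 11.04% of relaxed regions. Some intron summits lay outside the member gene and inside another protein-coding gene, as at rpl-24.2, npr-23 and hsp-70. Exons of noncoding transcripts held 11 members (4.98%) and 1.94% of relaxed regions.

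A subset of members lay at internal starts of their genes. The start nearest the summit lay more than 200 bp inside the gene's first start in 42 members (19%), against 25.02% of the relaxed regions, a difference of −6.01 points (−11.2 to 0.08). These 42 lay a median of 4485 bp inside the first start, 27 of the summits were in introns, and 30 were upstream of the internal start. Their median signal was 59.6. Of the 25 strongest members 6 were of this kind. They were hif-1, 2065 bp inside its first start, C23H3.9 at 5837 bp, scc-2 at 8467 bp, pde-4 at 9082 bp, gar-2 at 8080 bp and kin-1 at 26243 bp.

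Member genes were long and often had several starts. Their median span was 4666 bp, against 3151 bp in the 1264 genes with only a weaker region of this kind and 1964 bp in all autosomal protein-coding genes. More than 1 transcript start was annotated in 56.7% of member genes, against 50.6% of the genes with a weaker region and 27.6% of all. Since a gene with more starts offers more places for a summit, the genes with weaker regions are the closer comparison, and there the difference in this share was 6.05 points (−1.15 to 13.03). The median distance to the next protein-coding gene upstream was 1573 bp, against 1631 bp at genes with a weaker region and 1020 bp at all genes. The rule on 1 gene bears on that distance directly. A curated gene symbol, rather than a sequence name alone, was held by 71.9% of member genes, against 61.9% of genes with a weaker region (difference 10.02 points, 3.17 to 16.2) and 55.4% of all.

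Noncoding genes lay within 200 bp of 22 members (9.95%), against 7.03% of the relaxed regions. Small nucleolar RNA genes, whose products guide the modification of ribosomal RNA, were near 4 members (1.81%, at cmtr-1, cogc-3, fbxl-1 and din-1, picked out after their values were seen), against 3 of 1395 relaxed regions (0.215%). The difference was 1.59 points (0.42 to 4.35). No tRNA gene was that near a member, against 7 of the 1395. Another IDR summit lay within 1 kb of 14 members (6.33%), against 8.99% of upstream one-gene regions, 1.92% of shared ones and 11.99% of those outside promoters.

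The strongest member lay 186 bp upstream of cdc-48.1, the AAA ATPase that extracts ubiquitinated proteins. Its signal was 251 in the IDR list, 85.8 in replicate 1 and 155 in replicate 2, and it ranked 3 among all IDR regions, 14 in replicate 1 and 3 in replicate 2. It also lay in the dense run of the replicate 1 list, and what part the run had in its value was not tested. In each pair of replicate values here, replicate 1 is given before replicate 2. Next came cox-5B, a subunit of cytochrome c oxidase, 14 bp upstream of the start, with a signal of 171 and replicate values of 63.8 and 100.3. The histone H4 gene his-37 had 149.7, with 55.8 in replicate 1 and 88.6 in replicate 2, and its summit was 68 bp upstream. In all 3 genes replicate 2 had the higher value and both replicates ranked the region among their strongest.

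The internal start of hif-1, the transcription factor of the hypoxia response, had a signal of 145, with 54.7 in replicate 1 and 94.7 in replicate 2. At tos-1 the order of the replicates was the other way round, with 73.9 in replicate 1 and 57.3 in replicate 2 and an IDR signal of 136. lin-9 encodes a subunit of the DREAM complex, which represses cell cycle genes, and its region had 129, with 62.2 in replicate 1 and 70.7 in replicate 2. Next came fbxl-2, an F-box protein gene, with 116.1. The DNA repair gene ercc-1 and the Integrator subunit gene ints-4 had 114 each, with the summit 81 bp downstream of the start in ercc-1 and 50 bp downstream in ints-4. Together with gar-2 these were the only 3 of the 25 strongest with a downstream summit.

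The other strong members included further genes of chromosome and RNA metabolism. Signals were 111 at ntl-11, a subunit of the CCR4-NOT deadenylase, 109 at scc-2, the cohesin loader, and 107 at brc-1, the orthologue of BRCA1. Genes that act in neurons were among them as well. unc-14, whose product binds the kinase UNC-51 in axon growth, had 102, with 52.1 in replicate 1 and 50.1 in replicate 2. egl-21, the carboxypeptidase of neuropeptide processing, had 102, with 31.6 and 61.7. gar-2, a muscarinic acetylcholine receptor, had 101.2, with 50.8 and 54.8. unc-16, an adaptor of kinesin transport, had 98.7, with 41.2 and 50.6.

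The remainder of the 25 strongest lay between 95.5 and 108. They were C23H3.9, pde-4 (a cAMP phosphodiesterase), Y39E4B.6, gei-4, bag-1 (a cofactor of Hsp70), kin-1 (the catalytic subunit of protein kinase A), F48A11.4, ubl-1 (a ubiquitin-like fusion with a ribosomal protein) and unc-108 (the Rab2 GTPase). Of the 25, 24 were found in both replicate lists, and all 24 were among the 2253 strongest of each. gei-4 had no summit within 100 bp in replicate 1 and a signal of 44.3 in replicate 2. Replicate 1 values of the 24 ran from 26.8 to 85.8 with a median of 50.1. Replicate 2 values of the 25 ran from 44.3 to 155 with a median of 57.6.

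**Figure D3:**
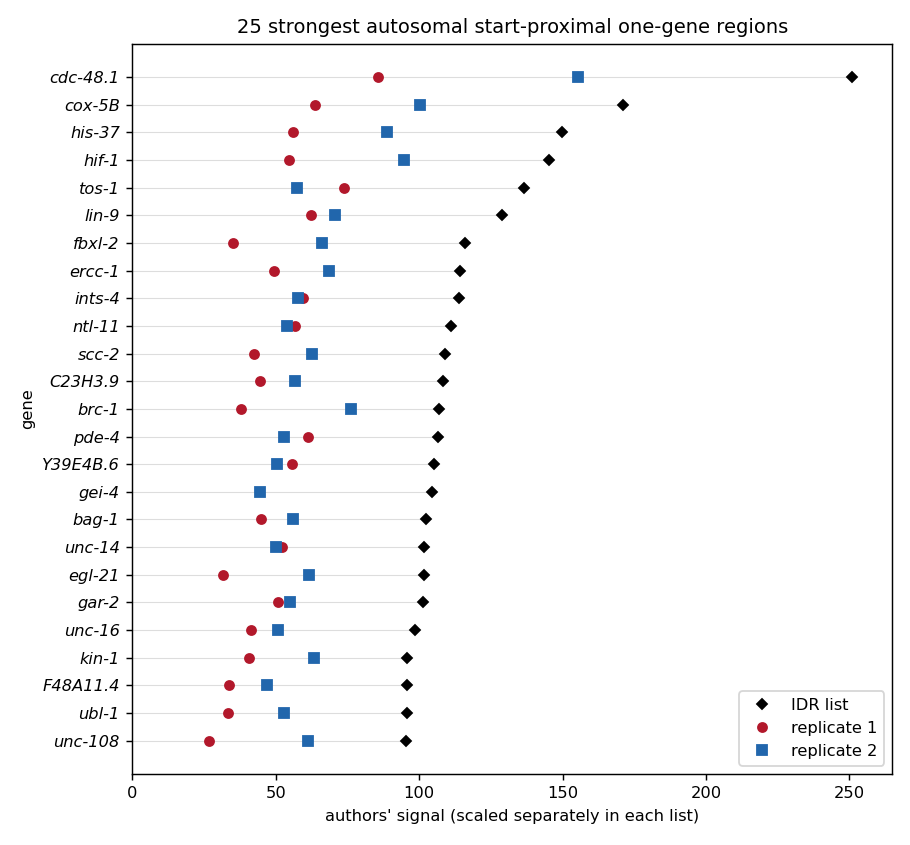
The authors' signal of the 25 strongest members in the IDR list (black diamonds), replicate 1 (red circles) and replicate 2 (blue squares), with no error bars since each point is 1 value; the scale of each list is its own. cdc-48.1 stands first with 251, and the IDR signal is 95.5 or higher in all 25.

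Over all members the replicates overlapped broadly but ranked regions differently. Both replicate lists had a summit within 100 bp in 189 members (85.5%, interval 80.3 to 89.6%), where all autosomal IDR regions had 89.6%. Replicate 1 alone had 9, replicate 2 alone 22, and 1 member, at shk-1, had neither. Here and below, found in 1 replicate alone means that the other list had no summit within 100 bp. With 1 bp of overlap as the match instead, 98.6% of members had a region in both lists. Among the 2253 strongest of replicate 1 were 156 members (70.6%), where all autosomal regions had 70.1%, and among those of replicate 2 were 170 (76.9%), against 79.3%. Both held 125. Members had a median of 26.7 in replicate 1 and of 33.6 in replicate 2, and the second value was higher in 138 of the 189 (73.0%). The log2 ratio of replicate 2 to replicate 1 had a median of 0.44 and an SD of 0.69, and a part of that shift may lie in the scale of each list, which was not tested. Over the 189 members the values of the replicates had a Pearson r of 0.43 on the log2 scale and a Spearman rho of 0.43. These describe regions drawn from a list made over both replicates.

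The 3 lowest and the 3 highest ratios of replicate 2 to replicate 1 were as follows. Higher in replicate 1 were daf-1, a type I receptor of TGF-beta signalling, with 32.2 in replicate 1 and 5.97 in replicate 2, smr-1 with 32.8 and 9.56, and sec-24.1, a subunit of the COPII coat, with 32.4 and 14.4. Higher in replicate 2 were T15B12.1, with 6.54 in replicate 1 and 32.4 in replicate 2, acc-1, an acetylcholine-gated chloride channel, with 11.1 and 54.4, and unc-104, the kinesin of synaptic vesicle transport, with 8.55 and 39.9. Such regions rest mainly on 1 replicate. The region at unc-104 ranked 17280 in replicate 1 and 772 in replicate 2.

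**Figure D4:**
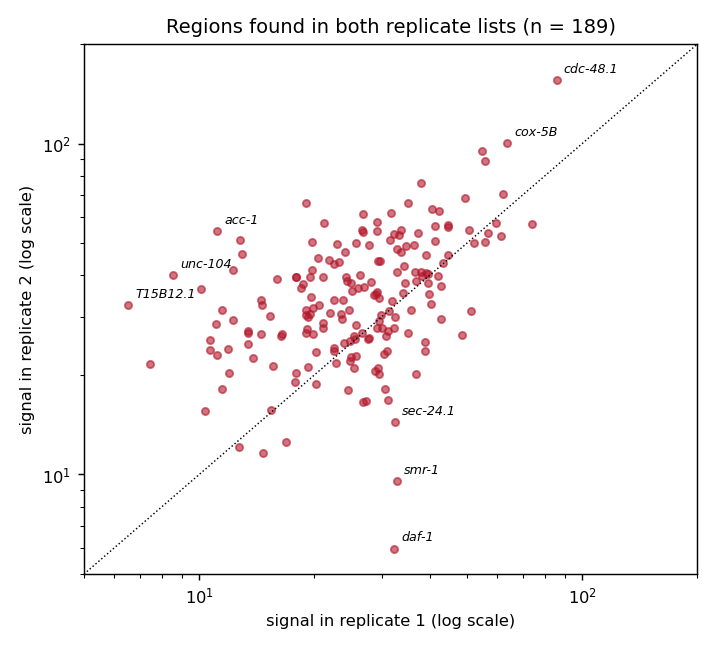
The authors' signal in replicate 1 (x, log scale) and replicate 2 (y, log scale) of the 189 members found in both lists, 1 point a member, with a dotted line of equal values. Most points lie above the line (138 of 189), daf-1 lies farthest below it, and T15B12.1, acc-1 and unc-104 lie farthest above.

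A gene had 2 members in 4 cases. hmp-2, the beta-catenin of cell junctions, had signals of 80.2 and 60.2, and the stronger was found in replicate 2 alone and the weaker in replicate 1 alone. Both lay in the dense run on chromosome I. At F17C11.4 the signals were 71.2 and 54.3, and both summits were in coding exons. The 2 regions overlapped each other. The stronger was found in replicate 2 alone, with 41.2, and had no summit within 100 bp in the pooled list. The weaker had 29.4 in replicate 1 and 20.2 in replicate 2. At F36D4.4 the signals were 63.97 and 51.4, and at mcp-1 82.3 and 46.2, each at separate starts. An upstream one-gene region was also present at 11 genes and a shared one at 1.

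Gene groups were described from 33 symbol lists, and 53 of the 217 member genes were in any of them. Over all autosomal protein-coding genes 1.26% had a member (217 of 17242), and of the 2343 genes with any relaxed or IDR summit within 200 bp of a start 9.26% did. Genes of synaptic transmission had 5 of 51 (9.80%, interval 4.26 to 20.98%), or 27.8% of the 18 with a summit near a start. They were egl-21, described above, unc-31, the CAPS protein of dense-core vesicle release (73.1, with 36.9 in replicate 1 and 38.3 in replicate 2), unc-25, the GABA-synthesising glutamate decarboxylase (55.9, with 26.9 and 36.9), unc-104 (52.6) and rab-3, the synaptic vesicle GTPase (43.9, found in replicate 2 alone with 34.7). Their median signal was 55.9, below the 59.8 of all members. Without replicate 2 the count was 3 of 51, and among IDR regions above the median signal it was 2 of 51.

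Receptors and channels other than chemoreceptors held 8 of 190 (4.21%, interval 2.15 to 8.09%), or 24.2% of the 33 with a summit near a start. Among them were gar-2, the peptide receptor gene npr-23 (82.0, with 44.5 and 45.9 in replicates 1 and 2), glr-5, a glutamate receptor subunit (69.4, with 38.8 and 23.6), and kvs-2, a potassium channel subunit (50.3, with 22.5 and 33.7). Their median of 48.6 was low among members, and shk-1, the one found in neither replicate, was of this group. Of the chemoreceptor symbols 1 of 1331 had a member, and neuropeptide and insulin genes had 0 of 108.

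Splicing and RNA-binding factors had 6 of 81 (7.41%, interval 3.44 to 15.2%), or 21.4% of the 28 with a summit near a start, with a median signal of 64.3. They included 4 heterogeneous nuclear ribonucleoprotein genes, among them hrpk-1 (83.7, with 39.2 in replicate 1 and 45.9 in replicate 2), hrpa-1 (66.8, with 12.9 and 46.2) and hrpu-1 (66.4, with 21.8 and 44.4). The list also held snrp-3, an Sm protein of the spliceosome (62.1, with 18.7 and 37.6). These 4 were higher in replicate 2, whereas the fourth ribonucleoprotein gene, hrpu-2, had 36.9 in replicate 1 and 20.1 in replicate 2. The count falls to 2 of 81 when summits must lie within 100 bp of a start.

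Protein quality control was represented by 4 of 75 ubiquitin genes (5.33%, interval 2.09 to 12.9%, median 58.1) and 3 of 58 chaperone genes (5.17%, 1.77 to 14.1%, median 52.7). Beside cdc-48.1 stood ufd-3 (59.8, with 19.4 in replicate 1 and 39.4 in replicate 2) and ubxn-2 (52.4, with 19.1 and 27.4), whose products bind that ATPase. The fourth, usp-39 (56.5, with 31.0 and 27.1), was listed by its symbol alone, and a role of it in protein quality control was not examined. The chaperone genes were bag-1 (102), sti-1, a cochaperone of Hsp70 and Hsp90 (52.7, with 20.2 and 18.8), and hsp-70 (44.1, found in replicate 2 alone). With the limit at 100 bp from a start, no ubiquitin gene and 1 of 58 chaperone genes had a member. Among IDR regions above the median signal the counts were 2 of 75 and 1 of 58. Of genes with a summit near a start, ubiquitin genes had 4 of 19 and chaperones 3 of 18. Against the 9.26% of all such genes, ubiquitin genes differed by 11.8 points (−0.75 to 34.1). Chaperones differed by 7.41 points (−3.43 to 29.96). Both intervals included 0.

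Respiration had 3 of 50 (6%, interval 2.06 to 16.2%), namely cox-5B, nduf-11 (50.4, found in replicate 2 alone with 24.7) and nduf-7 (45.1, with 14.6 in replicate 1 and 32.6 in replicate 2), the last 2 encoding subunits of complex I. With as many of the strongest replicate 1 regions in place of the IDR list, so without replicate 2, respiration had 1 of 50. Membrane trafficking had 4 of 120 (3.33%, 1.30 to 8.26%): vps-25 of the ESCRT-II complex (65.3, with 23.1 and 43.96), snap-1, alpha-SNAP (58.6, with 22.8 and 21.7), sec-24.1 (55.7) and rab-3. Without replicate 1 in the same way trafficking had 2 of 120. Chromatin factors had 3 of 78 (3.85%, 1.32 to 10.7%), all weak: swsn-3 of the SWI/SNF complex (46.3, replicate 2 alone), the histone methyltransferase gene met-1 (45.4, replicate 1 alone) and mes-2, the Polycomb methyltransferase (42.9, with 13.4 in replicate 1 and 27.2 in replicate 2). The chromatin count was 0 among IDR regions above the median signal and 0 without replicate 2. Of genes with a summit near a start, respiration had 3 of 16, trafficking 4 of 28 and chromatin factors 3 of 18. Against the 9.26% of all such genes, respiration differed by 9.49 points (−2.67 to 33.7). Trafficking differed by 5.02 points (−3.56 to 22.2) and chromatin factors by 7.41 points (−3.43 to 29.96). Each of these intervals included 0.

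Cytosolic ribosomal protein genes showed how narrow this place is. Of 80 such genes 59 had an IDR region somewhere in a promoter window, but 41 of them had a shared one and 16 an upstream one-gene region, and only 2 had a member, ubl-1 (95.7, with 33.3 in replicate 1 and 52.8 in replicate 2) and rpl-24.2 (89.3, with 27.7 and 49.3). That was 2.50% of the 80 (interval 0.69 to 8.66%). Mitochondrial ribosomal proteins had 2 of 70, rRNA maturation 2 of 33 and RNA polymerase II, TFIID and Mediator 2 of 59. One member gene each was found in the lists for aminoacyl-tRNA synthetases (of 32), glycolysis (of 16), the proteasome (of 33), the vacuolar ATPase (of 18), the DREAM complex and cell cycle (of 60, lin-9), histones (of 68, his-37), homeobox factors (of 73) and heterochronic timing (of 11). The collagen and moulting pattern of 197 symbols matched 1 member gene, dpy-26, which encodes a condensin subunit and no collagen (signal 42.2).

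No member was found in 11 lists. These were 42 translation factors, 19 citric acid cycle genes, 8 subunits of the chaperonin CCT, 40 nuclear pore and transport genes, 51 actin, tubulin and cytoskeleton genes, 32 muscle genes, 108 neuropeptide and insulin genes, 67 cilium genes, 11 forkhead genes, 247 nuclear hormone receptor genes and 75 germline RNA genes. With a base of 1.26%, a count of 0 says little for the smaller lists, and in all 11 lists the interval reached above the base. For the nuclear hormone receptors the interval ended at 1.53% and for the cilium genes at 5.42%. Of the 217 member genes 164 were in no list.

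The sequence around the members' summits was compared over 100 bp on either side, with each motif sought on both strands. The forkhead forms GTAAACA or GTAAATA or ATAAACA or ATAAATA were present at 38 members (17.2%, interval 12.8 to 22.7%), against 19.6% of the relaxed regions of the same place, 12.08% of upstream one-gene regions, 20.2% of shared ones and 20.1% of 25625 equal windows at autosomal protein-coding starts. The difference from the relaxed regions was −2.38 points (−7.28 to 3.499). It was −6.35 points (−10.8 to −0.83) without replicate 2, −4.42 points (−7.48 to −0.12) within 50 bp of the summit, and 2.95 points with the relaxed regions weighted to the members' GC content, so its sign turned with the weighting. GTAAACA alone was at 9 members (4.07%), against 2.51% of relaxed regions and 2.36% of all starts, and that difference of 1.56 points from relaxed regions (−0.58 to 5.12) also included 0. Members with a forkhead form had a median signal of 53.7, and the other 183 had 61.4.

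The GAGA repeat, GAGAGAG, was the motif in which members differed most upwards from weaker regions. It was at 40 members (18.1%, interval 13.6 to 23.7%), against 7.38% of the relaxed regions, a difference of 10.7 points (5.96 to 16.5), and against 4.01% of all starts. When the relaxed regions were weighted to the members' GC content their share was 10.9%. Upstream one-gene regions had 21.3% and regions outside promoters 24.9%, so the repeat was no more frequent at members than at most other IDR regions. Shared promoters had 8.97%, and members exceeded them by 9.13 points (3.29 to 15.3). The median signal was 66.9 in the 40 members with the repeat and 58.1 in the other 181. Such repeats are low-complexity sequence, and whether reads there map less uniquely was not tested.

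The splice acceptor and the TATA box were less frequent at members than at weaker regions, while the higher shares of the E2F-type and AP-1 sites did not hold without replicate 2. TTTCAG, the consensus of the 3' splice site, was at 24.4% of members, against 34.2% of relaxed regions, a difference of −9.76 points (−15.5 to −3.22), and against 14.04% of upstream one-gene regions, a difference of 10.4 points (3.84 to 17.3). In members it stood on the gene strand at 17.6% and on the other at 9.05%. TATAAA, the TATA box, was at 13.6%, against 21.4% (−7.86 points, −12.3 to −2.31), and the difference was −13.6 points without replicate 2, and −2.05 points with the relaxed regions weighted for GC content. The E2F-type site, TTCGCGC or TTCCCGC, was at 21 members (9.50%), against 5.59% of relaxed regions (3.91 points, 0.44 to 8.63) and 2.83% of all starts. The AP-1 site, TGACTCA or TGAGTCA, was at 9 members (4.07%), against 1.58% (2.50 points, 0.42 to 6.02). Without replicate 2 the difference was 1.69 points (−1.42 to 6.06) for the E2F-type site and 1.79 points (−0.14 to 5.16) for the AP-1 site, and both intervals then included 0, as they did among IDR regions above the median signal.

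The GATA site TGATAA was at 11.3% of members, against 16.4% of relaxed regions, the homeodomain site TAATTA at 5.88% against 8.89%, the E-box CACGTG at 4.98% against 4.30%, and the SP1-type site CCCGCCC at 1.81% against 1.65%. Each of these intervals of the difference included 0 with the IDR list. For the GATA site the interval left out 0 without replicate 1 (−5.30 points, −9.36 to −0.07) and without replicate 2 (−6.15 points, −10.05 to −1.13). With GC weighting the GATA difference was −2.11 points. A run of 7 T was at 35.3% of members and 38.9% of relaxed regions, a difference of −3.56 points that turned to 5.29 points with GC weighting and to 0.93 points without replicate 1. It stood on the gene strand at 25.3% of members and on the other at 12.2%, where the relaxed regions had 26.5% and 18.4%. Members were richer in G and C, with 42.3 ± 7.05% (SD over 221 windows), against 37.9 ± 7.48% at relaxed regions and 36.8% at all starts. Of the 12 motifs, 3 had shares above and 2 below those of the relaxed regions with an interval of the difference that left out 0, without adjustment for the number compared. Without replicate 2 the E2F-type and AP-1 sites were no longer among the 3.

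**Figure D5:**
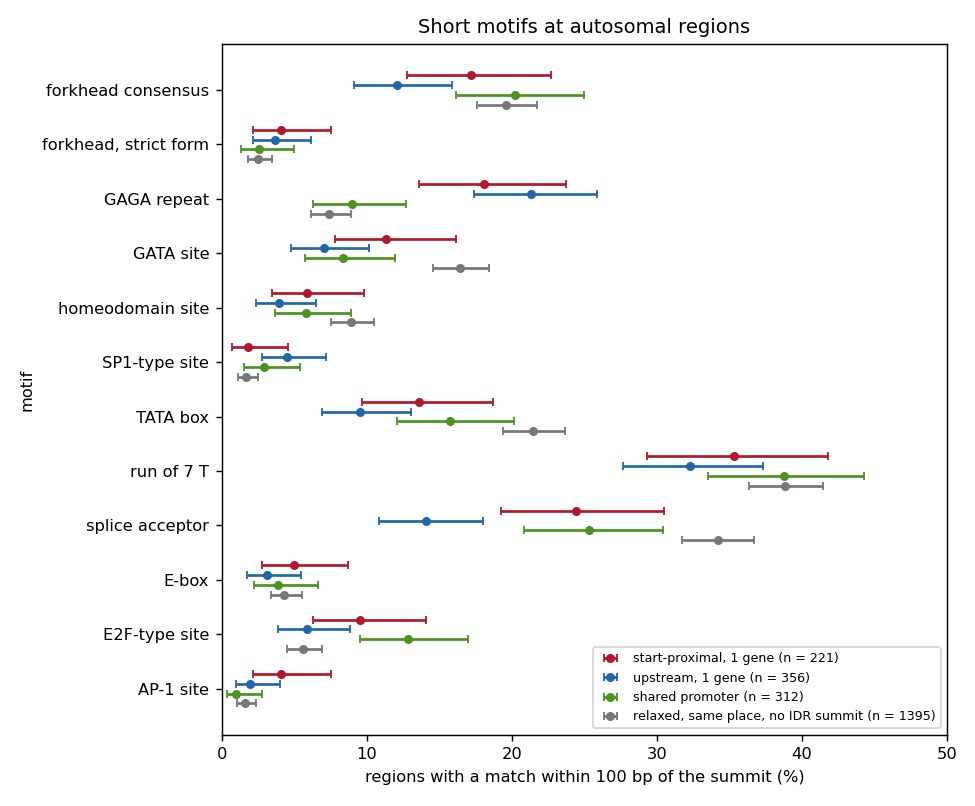
Share of regions with each motif within 100 bp of the summit on either strand (x, percent) for the members, upstream one-gene regions, shared promoter regions and relaxed regions of the same place, with 95% Wilson intervals. The GAGA repeat stands at 18.1% of members and 7.38% of relaxed regions, and the strict forkhead form at 4.07% of members and 2.51% of relaxed regions.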

How the data were processed

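ChIP-seq of tagged FKH-10 was measured in 2 replicates of whole L4 animals. Per the file descriptions, the authors deposited 1 IDR list over both replicates and relaxed lists for the pooled replicates and for each one, and 4 lists on ce11 were used. The deposited values are a signal per region and a −log10 value per region, either of q or of IDR. How the signal is scaled, and with which aligner, caller or cutoff the lists were made, is not given in the sources used here. Fragments of 150 to 350 bp were selected, per the labels. The authors' signal served to order and describe the regions of each list on its own. Read depth is unknown.

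Summits were placed with the Ensembl release 115 annotation of WBcel235, the sequence of ce11, using all transcripts of protein-coding genes. Coordinates count from 1. Regions of separate lists were matched where summits lay within 100 bp, the nearest summit being taken. In the alternative with 1 bp of overlap, the strongest overlapping region was taken. Shares carry 95% Wilson intervals and differences Newcombe intervals, for counting error only, and no test was made, since there was 1 group and regions are not replicates. GC weighting used bins of 5 points. Sequence was read from the NCBI copy of the assembly, and windows are printed only for members not on chromosome I. Python 3.11.15, numpy 2.4.6 and pandas 2.3.3 were used, and the steps were tested on simulated data. In both replicate lists 0 regions had the same position and signal.

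The genes named are the 25 strongest members, the 2 regions on either side of the 200 bp limit, genes with 2 members, up to 4 members of each list with 3 or more, and the 3 largest and 3 smallest replicate ratios; a few others were named after their values were seen. Chemoreceptor genes are counted but not named. The members and lists were chosen with earlier results of these data known. Alternatives tried were other start distances, promoter windows, match distances, IDR regions above the median signal, leaving out a replicate or the dense runs, GC weighting and the genes with a relaxed summit.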

Additional observations from a re-analysis of the deposited data

How the results depend on the processing

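The number of members was 109 with a limit of 100 bp from a start, 336 with 300 bp and 111 among IDR regions above the median signal, and 216 to 224 when a list of equal size was taken from 1 replicate alone. The median offset of the summit was −44 bp with the 100 bp limit and −148.5 bp with 300 bp, as the limits themselves set, and −88 to −86 bp from 1 replicate alone. The share of start-proximal relaxed regions with an IDR summit minus that of other relaxed regions was 6.68 points with a promoter of 500 bp upstream to 100 bp downstream, against 3.17 points as reported. The share of members found in both replicate lists was 61.5% with summits within 50 bp and 98.6% with 1 bp of overlap. The downstream share of members minus that of relaxed regions was −22.1 to −15.7 points when 1 replicate was left out, alternatives chosen after seeing the data. Of 60 motif differences recomputed, 57 moved by less than their interval and 3 by more, 2 of them at the TATA box. Of 48 gene list differences, 41 did so, 4 moved and 3 changed sign: ubiquitin genes at −0.62 points with the 100 bp limit, and chromatin factors at −0.64 among IDR regions above the median signal and at −1.27 without replicate 2, against 2.61 without replicate 1. In each of these 3 no member gene of the list was left. No paired analysis was possible because the labels give 1 group.

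The lists hold no counts or depth, so the precision of a single region's signal cannot be stated beyond its values in the replicates. Members with a summit within 100 bp in 1 replicate list alone have a value from that replicate only. This depends on the matching limit, since with 1 bp of overlap 98.6% of members had a region in both lists. A summit's place is read against annotated starts, not against mapped ones. Symbol lists cover a minority of the member genes.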

Other observations

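Some small sets stood out among the 164 member genes outside the lists or across lists. They were picked after their values were seen, so their counts are descriptions and support nothing. Of 4 autosomal genes of the NALCN sodium leak channel, which sets neuronal excitability, 3 had a member: unc-80 with a signal of 91.1 (18.99 in replicate 1 and 66.2 in replicate 2), unc-79 with 54.5 (replicate 2 alone, 33.8) and unc-77 with 51.6 (23.6 and 29.4). Of 14 autosomal genes of Gs and cyclic AMP signalling 4 had one. They were pde-4 with 107 (61.2 in replicate 1 and 52.7 in replicate 2), kin-1 with 95.8 (40.6 and 63.4), the adenylyl cyclase gene acy-1 with 86.9 (36.3 and 49.5) and gsa-1, the Gs alpha subunit, with 41.6 (28.8 and 20.5). The regions at unc-77, pde-4 and kin-1 lay at internal starts.

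Of 10 autosomal transcription factor genes of stress responses 4 had a member, hif-1 with 145, xbp-1 of the unfolded protein response with 77.3 (26.8 in replicate 1 and 53.9 in replicate 2), let-607 with 57.5 (replicate 2 alone, 48.6) and hlh-30, the TFEB orthologue, with 51.03 (27.3 and 16.7). Of 11 genes of axonal transport and outgrowth 4 did, unc-14 with 102, unc-16 with 98.7, unc-104 with 52.6 and unc-33 with 52.2. Of 35 genes of RNA cleavage, deadenylation and nonsense-mediated decay 6 did, namely ints-4, ntl-11, cpsf-1, cpf-2, smg-8 and ccr-4, with a median signal of 55.2. Of 78 autosomal genes with an unc symbol, given for uncoordinated movement, 13 had a member (16.7%, Wilson interval 10.01 to 26.5%), where all autosomal genes had 1.26%. This set too was picked after its values were seen. Its share among genes with a relaxed summit near a start, the closer comparison, was not computed. These sets overlap. The channel genes unc-80, unc-79 and unc-77 and the axonal genes unc-14, unc-16, unc-104 and unc-33 are counted again among the unc symbols.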
